A study of Rattus norvegicus with 4 samples.

Results

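The nuclear genes of the respiratory chain were followed through radiation dermatitis, the skin injury of radiotherapy, in rat footpad. They were taken by symbol from the gene tables: every row with a numeric gene identifier whose symbol begins with Nduf, Uqcr, Atp5, Sdha to Sdhd or Cox4 to Cox8, or is Cycs or Cyc1, except the muscle isoform Cox6a2. This gave 79 genes among 11471 rows with such an identifier and 18957 rows in all. Hindlimb footpad skin came from Sprague Dawley rats, an outbred stock, which per the labels received 10 Gy on each of days 1, 2, 4 and 5 from a 9 MeV electron beam at 500 cGy/min. Day 0 is the collection before the first of these irradiations, day 3 follows the irradiations of days 1 and 2, and days 6 and 9 follow all 4 of them. Each collection day has 1 library. The descriptions of single samples name other days, with extraction on day 1 for the day 0 sample, and the days used here are those of the sample titles. The number of animals behind a library, their sex, their age and any pooling are not given in the labels.

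With 1 library for each day there was no error between replicates and no test. A ratio sets 1 library against another, and its 95% interval takes in the error of counting alone, not the spread between animals. The libraries held between 1952921 and 1982608 gene counts. A ratio was taken between counts scaled for library size, and a gene was called higher or lower when the ratio was at least 2-fold, the higher library had at least 50 counts and the interval left out 1. A second, looser call used 1.5-fold.

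The respiratory chain lies in the inner membrane of mitochondria. Complex I takes electrons from NADH and complex II from succinate, ubiquinone carries them to complex III, cytochrome c carries them on to complex IV, which reduces oxygen, and complex V, the ATP synthase, uses the proton gradient that complexes I, III and IV build. Most subunits are encoded in the nucleus and a small set in mitochondrial DNA. In and beneath skin, muscle fibres and sweat glands hold many mitochondria, while the cornified layers of the epidermis have lost theirs.

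The assay counts each transcript through a 21-base tag that starts at a CATG site, so a gene's value is a number of tags and does not grow with transcript length. The tags below belong to chain subunits and a paralog called lower on day 6 against day 0, and they are shown because nearly all of each gene's count rests on that single sequence. Capitals mark the CATG site.
Atp5g2: CATGgttcttccgtgtctcgt
Atp5i: CATGgcatacggcgccaagcg
Ndufa2: CATGaagtgtctccactgagg
Ndufa7: CATGactgcttttcctccttg
Ndufb10: CATGccggactcttgggacaa
Ndufb11: CATGgaatccaactattttga
Uqcrfs1: CATGtcccctcagaagagttg
Ndufa4l2: CATGcccgactgggtgtggca
The share of the gene's counts in the tag ran from 91.2% for Ndufb11 to 100% for Ndufa2 and Ndufb10. In 63 members the mean over the libraries reached 10 counts. Over these, the main tag held a median of 97.6% of the counts, and in 59 of them the same tag led in all 4 libraries. The exceptions were Cox5b, Cycs, Ndufa4 and Ndufaf2. A base difference between outbred animals can move copies from one tag to another. For each of 48 members examined other than Atp5a1, the most abundant tag 1 base away from the main tag was taken. It had at most 5.07% of the main tag's copies and at most 14 copies on day 6. For Atp5g2, Atp5i and Uqcrfs1 that neighbour had 0 copies on day 6. The neighbour was chosen by its copies over all 4 libraries, and other tags 1 base away were not summed, so they could hold day 6 copies. Only the 17 bases after CATG were varied, so a base difference in the CATG site itself could not be seen.

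The members were lower on day 6 than on the days around it. The 79 genes together had 25878 counts on day 0, 30609 on day 3, 22885 on day 6 and 28651 on day 9, which is 1.31, 1.56, 1.16 and 1.47% of all gene counts. Day 6 was therefore the low point of the sum and day 3 its high point. Among the 49 members whose mean reached 50 counts, 27 (55.1%) had their lowest scaled count on day 6, against 20.4% of 4671 rows of that abundance. Day 6 was the highest day of 2 of these members (4.08%) and of 1168 of the rows. Fewer mitochondria-rich cells and less of these RNAs in each cell cannot be told apart in whole skin.

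**Figure D1:**
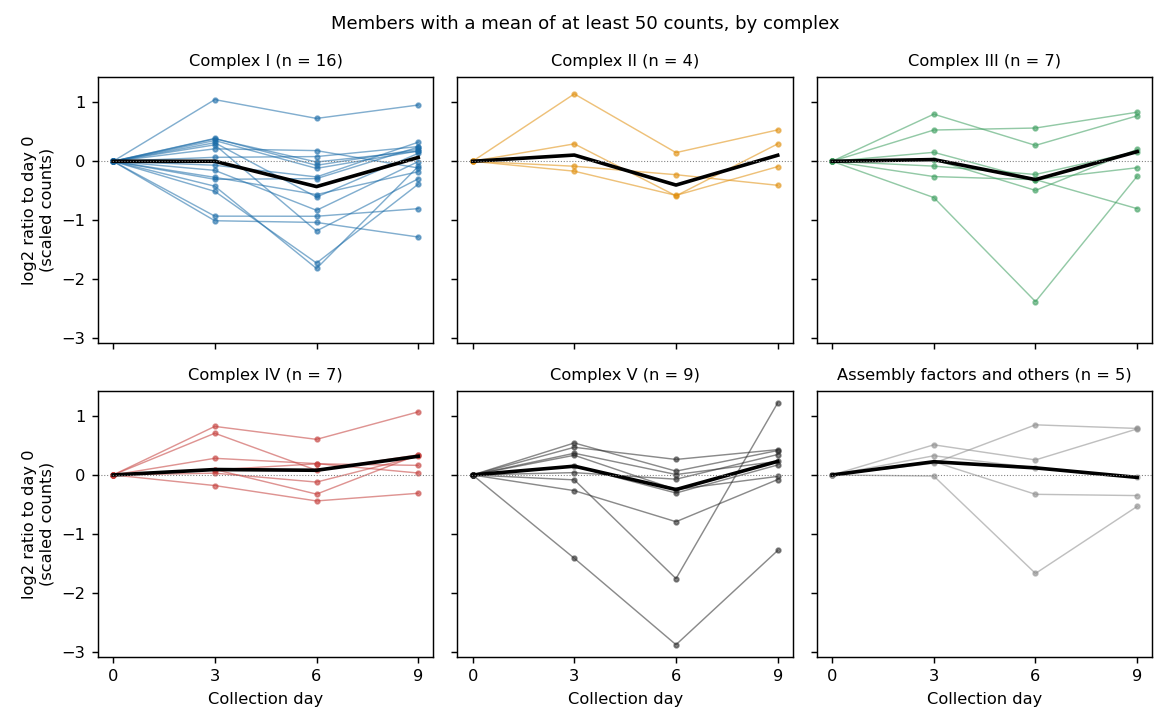
The log2 ratio of scaled counts to day 0 (vertical axis) is plotted against the collection day for each of the 49 members whose mean reached 50 counts, 1 panel for each complex, with the median as a thick line; cytochrome c is not drawn. Most lines of complexes I, II, III and V dip on day 6, and those of complex IV do so less.

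On day 3 against day 0, the median log2 ratio over these 63 members was 0.15, with 39 of them above 0, while the median over 9876 rows of the same minimum was -0.01. By the 2-fold rule 2 of 51 members with enough counts were higher and 3 lower, and the background over all rows was 8.54% higher and 7.88% lower. The 3 lower members include Cox4nb, which is not a chain subunit. By the 1.5-fold rule 6 were higher and 5 lower, with a background of 17.8% and 20.1%. The members were thus no more often past either fold than other rows, while their median lay slightly above that of all rows. It was 0.26 when the authors' own normalised values were used.

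On day 6 against day 0, the median was -0.23, with 39 of 63 members below 0, and over all rows it was 0.03. None of 50 members with enough counts was 2-fold higher and 9 (18.0%) were 2-fold lower, where the background was 7.48% higher and 13.1% lower. At 1.5-fold 3 were higher and 13 (26.0%) lower, against 18.1% and 22.2% of all rows. The share of lower members lay near the background, and the share of higher members lay below it. The 9 lower members include Cox4nb and Ndufa4l2, which are not chain subunits. Among subunits alone 7 of 44 (15.9%) were 2-fold lower. With 10 further rows that the files describe as nuclear subunits, the median was -0.12.

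On day 9 against day 0, the median was 0.16, with 37 of 63 above 0, and over all rows it was 0.00. Of 51 members, 3 were 2-fold higher and 2 lower, against a background of 10.7% and 10.4%. At 1.5-fold 9 were higher and 5 lower, against 21.5% and 21.3%. After the median of rows with tags of like G and C content was subtracted, the members' median was 0.09. These 3 comparisons share the day 0 library.

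The day 6 library also enters a comparison with each of its neighbours. On day 6 against day 3, the median was -0.32, 53 of 63 members lay below 0, and all rows gave 0.02. None of 50 members was 2-fold higher and 7 (14.0%) were lower, against 2.88% and 6.74% of all rows. At 1.5-fold 1 member, Cox7a2l, was higher and 12 (24.0%) lower, against 10.6% and 14.2%. On day 9 against day 6, the median was 0.36, 50 of 63 lay above 0, and all rows gave 0.00. Here 7 of 50 members (14.0%) were 2-fold higher and none lower, against 10.0% and 4.37%. At 1.5-fold 15 (30.0%) were higher and none lower, against 18.1% and 14.8%. Both directions rest on the same day 6 library.

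**Figure D2:**
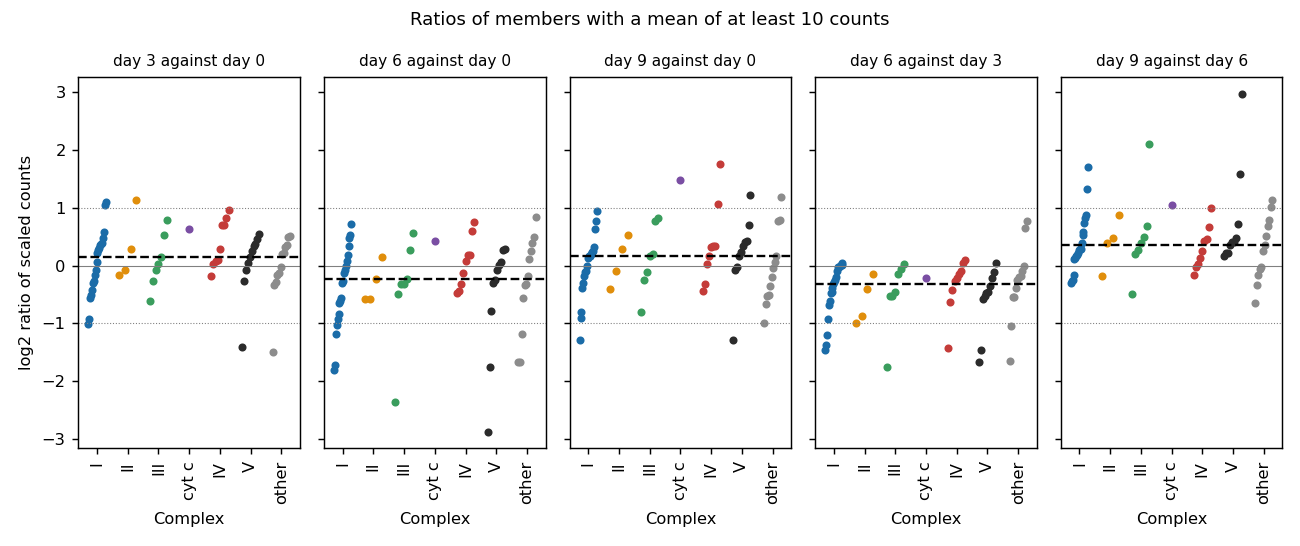
Each point is the log2 ratio of scaled counts (vertical axis) of 1 of 63 members, by complex, for the 5 comparisons; dashed lines mark the members' median and dotted lines 2-fold. The median lies at -0.23 for day 6 against day 0 and at 0.36 for day 9 against day 6.

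Markers of several cell types moved over the same days, not all in the same order. Of 20 listed skeletal muscle genes 19 had a row, and their summed counts were 6731, 12985, 11 and 12145 on days 0, 3, 6 and 9. On day 0, 2 of the 19 stood at 0, and on day 6, 17 did. Those at 0 on day 6 include the myosin light chain Myl1 and the myosin heavy chains Myh1 and Myh2. Cox6a2, the muscle isoform of complex IV subunit 6A, was also at 0 on day 6, with counts of 282, 528, 0 and 662. Mylpf and Atp2a1 had 8 and 3 counts on that day. The days fall in the same order for the muscle sum and for the members' scaled sum, from day 6 up through day 0 and day 9 to day 3. Markers of sweat gland and simple epithelium summed to 471, 834, 121 and 521, with the days in that same order. Adipocyte markers summed to 346, 1313, 514 and 862, with day 0 the lowest. Suprabasal keratinocyte markers summed to 36232, 29235, 49481 and 35912, but most of that sum was the keratin Krt1, with 21013, 23380, 38510 and 29506 counts. Of the 6 with a row, Tgm1 and Krt9 were called lower on day 6 than on day 0 and none higher, against 13.1% and 7.48% of all rows. The list's median log2 ratio was -0.40. Dermal fibroblast markers summed to 22308, 105095, 77929 and 71386, and macrophage markers to 676, 1469, 1130 and 1053. Of 7 fibroblast markers 6 were called 2-fold higher on day 3 than on day 0, against 8.54% of all rows. Basal keratinocyte markers summed to 2536, 2511, 3069 and 2553 and endothelial markers to 102, 99, 181 and 110, both highest on day 6. Most of the endothelial sum was Vwf, with 70, 73, 158 and 73 counts. Brown fat markers summed to 78, 83, 31 and 33, nearly all from Cidea, and stayed low on day 9. The part of muscle, gland, fat, epidermis, fibroblasts, macrophages or endothelium in the members' values was not tested.

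**Figure D3:**
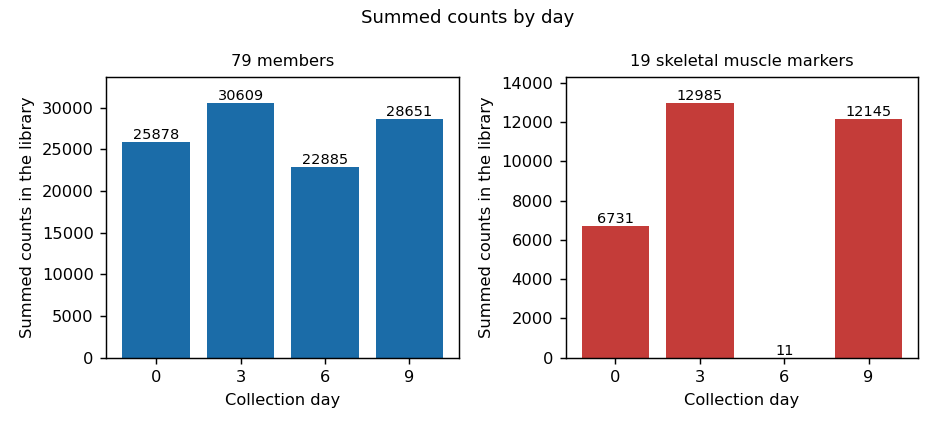
Bars give the summed counts in each library (vertical axis, from 0) by collection day, for the 79 members on the left and for 19 skeletal muscle markers on the right. The members' sum is 22885 on day 6 and the muscle sum 11, the lowest bar of each panel.

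Complex I, the NADH dehydrogenase, had 29 members, 20 of them with a mean of 10 counts or more. Their summed counts were 5192, 5509, 4125 and 5024 on days 0, 3, 6 and 9, and day 6 was the lowest day for 11 of the 16 whose mean reached 50. The core subunits, which carry the flavin, the iron-sulphur clusters and the quinone site, had a median log2 ratio to day 0 of -0.07 on day 3, -0.56 on day 6 and 0.13 on day 9. The supernumerary subunits, which surround that core, had medians of 0.21, -0.07 and 0.17. These medians rest on 5 core and 15 supernumerary genes. The 2-fold calls ran the other way on day 6 against day 0. Among genes with enough counts, 0 of 5 core and 4 of 11 supernumerary subunits were lower, against 13.1% of all rows. On day 6 against day 3 the medians were alike, at -0.29 for core and -0.32 for supernumerary subunits.

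Ndufv1, which binds NADH and the flavin, had 379, 200, 193 and 207 counts on days 0, 3, 6 and 9. Its 3 later libraries were alike and below day 0, by 1.90-fold on day 6 (95% interval 1.60 to 2.28). Its partner Ndufv2 had 198, 190, 160 and 236 counts, a different course with its high point on day 9. Ndufs3, another core subunit, had 152, 190, 97 and 159 counts. It was highest on day 3 and lowest on day 6. Ndufs1, the largest core subunit, had only 5, 4, 6 and 2 counts, too few to compare days.

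Among the 11 supernumerary subunits of complex I whose mean reached 50 counts, 5 were past 2-fold in some comparison. Over all complexes this held for 12 of 49 members (24.5%), against 32.9% of 4671 rows. Ndufb11, a membrane-arm subunit, had 116, 87, 32 and 104 counts and was 3.48-fold lower on day 6 than on day 0 (2.36 to 5.38). Ndufa2, which sits on the matrix arm, had 136, 96, 40 and 99 counts and was 3.27-fold lower (2.31 to 4.82). Ndufa7, also of the matrix arm, had 196, 239, 84 and 152 counts and was 2.26-fold lower (1.75 to 2.96). These 3 had their lowest value on day 6, and on day 9 Ndufb11 was again 3.28-fold above it (2.21 to 5.09). Ndufa2 was called higher in that comparison as well, with an interval of 1.73 to 3.74.

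Ndufb10 and Ndufs4 did not follow that dip. Ndufb10, also of the membrane arm, had 304, 152, 144 and 119 counts, so all later libraries lay below day 0, by 2.01-fold on day 3 (1.65 to 2.46) and 2.43-fold on day 9 (1.96 to 3.03). Its day 3 ratio sits at the threshold and was under 2-fold when counts were scaled by library totals. Its day 6 call was lost with totals that leave out the 20 most abundant genes. Ndufs4, an accessory subunit needed for a stable, active complex, had 122, 253, 196 and 225 counts. It was higher in the later libraries than on day 0, by 2.06-fold on day 3 (1.66 to 2.58) and 1.93-fold on day 9 (1.55 to 2.43). Members of 1 complex thus took opposite directions against day 0.

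**Figure D4:**
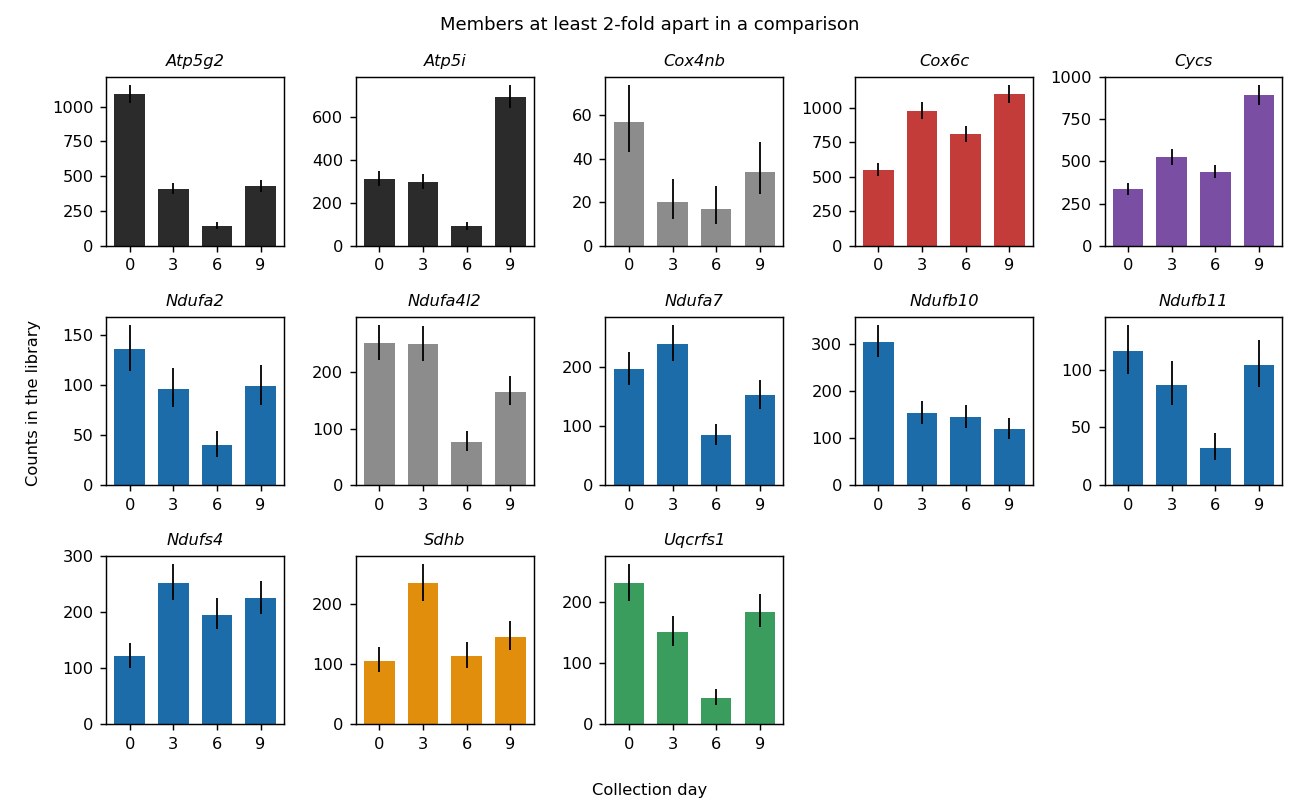
Bars show the counts in each library (vertical axis, from 0, its own scale in each panel) by collection day for the 13 members at least 2-fold apart in a comparison, and lines give the exact 95% Poisson interval of the count. Atp5g2, Atp5i, Ndufa2, Ndufa4l2, Ndufa7, Ndufb11 and Uqcrfs1 have their lowest bar on day 6, while Cycs and Cox6c have their highest on day 9.

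Complex II, succinate dehydrogenase, also works in the citrate cycle and has no mitochondrially encoded subunit. Its 4 genes summed to 776, 952, 573 and 811 counts. Sdhb, the iron-sulphur subunit, had 106, 235, 114 and 146 counts and was 2.20-fold higher on day 3 than on day 0 (1.75 to 2.80), with day 3 its single high library. Sdha, which holds the flavin, had 135, 128, 112 and 97 counts, a narrow range. The membrane anchors Sdhc and Sdhd had 326, 402, 211 and 381 counts and 209, 187, 136 and 187 counts. Both anchors were lowest on day 6, Sdhd by 1.49-fold against day 0 (1.20 to 1.87) and Sdhc with an interval of 1.26 to 1.79.

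Complex III, the cytochrome bc1 complex, had 8 members, and 7 of them had enough counts. Uqcrfs1 is the Rieske iron-sulphur protein, which passes electrons from ubiquinol to cytochrome c1. It had 230, 151, 43 and 184 counts and was 5.15-fold lower on day 6 than on day 0 (3.74 to 7.37) and 3.37-fold lower than on day 3 (2.40 to 4.88). On day 9 it was 4.32-fold above day 6 (3.12 to 6.23), so the low value belonged to that library. Cyc1, cytochrome c1 itself, had 180, 201, 141 and 159 counts and stayed within 1.5-fold of its day 0 value on all later days.

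The other subunits of complex III went different ways. The core protein Uqcrc1 had 562, 472, 440 and 307 counts and was lowest on day 9, 1.74-fold below day 0 (1.51 to 2.01). The small subunits Uqcrb and Uqcrq had 738, 1290, 864 and 1199 counts and 781, 1133, 1121 and 1324 counts. On day 9 they were 1.70-fold (1.55 to 1.87) and 1.78-fold (1.63 to 1.95) above day 0. The sum over complex III was 3676, 4441, 3457 and 4462, and its day 6 value lay nearer to day 0 than that of Uqcrfs1 alone.

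Cycs encodes cytochrome c, the soluble carrier between complexes III and IV, which also triggers caspase activation when released from mitochondria. It had 337, 525, 439 and 893 counts. Day 9 stood above the other days, 2.78-fold above day 0 (2.45 to 3.16) and 2.07-fold above day 6 (1.85 to 2.33). The count was spread over tags from 3 CATG sites, numbered from the 3′ end and shown because each gives its own reading of the gene.
Cycs site 1: CATGcctgattgggagtggta
Cycs site 2: CATGttatcactgctttccct
Cycs site 3: CATGaatggctaacaatgttt
Their copies were 141, 215, 135 and 279 at site 1, 123, 173, 151 and 323 at site 2, and 73, 126, 141 and 279 at site 3. Each was highest on day 9, at 2.07-fold, 2.75-fold and 3.99-fold above day 0 after scaling, so the size of the difference varied with the site. On day 6 against day 0, the site 1 tag had a log2 ratio of -0.02 and the site 3 tag one of 0.99.

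Complex IV, cytochrome c oxidase, had the highest median of the complexes on day 6 against day 0. It was 0.08 over 9 members, where complexes I, II, III and V had -0.28, -0.40, -0.31 and -0.16. The median bounds of its members' intervals were -0.47 and 0.30, a range that overlaps those of the other complexes. On day 6 against day 3 its median was -0.22, with 7 of 9 members below 0, and that of complex I was -0.30. On day 9 against day 6 the medians were 0.26 and 0.28. The sum over complex IV was 7075, 9067, 7265 and 8113. Cox4i1, the regulatory subunit found in most tissues, had 1785, 2928, 1832 and 2154 counts and was 1.63-fold higher on day 3 than on day 0 (1.54 to 1.73). Cox6c, a small membrane subunit, had 549, 976, 810 and 1097 counts and was higher on every later day, by 2.10-fold on day 9 (1.89 to 2.33). Cox7c, a small membrane subunit, had 954, 1022, 740 and 1152 counts and was lowest on day 6, and on day 9 it was 1.59-fold above that library (1.45 to 1.74). Cox5a, which binds the matrix face, had 1505, 1606, 1666 and 1605 counts, the flattest of the abundant members shown here.

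Cox5b, a zinc-binding subunit of complex IV, had 764, 678, 547 and 587 counts in all, but its 2 main tags moved in opposite directions. They are shown because the gene's total hides this.
Cox5b site 1: CATGgctggctagtctgattt
Cox5b site 2: CATGatagcagcacagagggg
The tag nearest the 3′ end had 198, 379, 408 and 227 copies and the next one upstream 559, 296, 139 and 360. On day 6 the first was 2.12-fold above day 0 (1.79 to 2.53) and the other 3.90-fold below it (3.24 to 4.74). The first tag made up 25.9% of the gene's counts on day 0, 55.9% on day 3, 74.6% on day 6 and 38.7% on day 9. The source of the split between the tags was not tested.

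**Figure D5:**
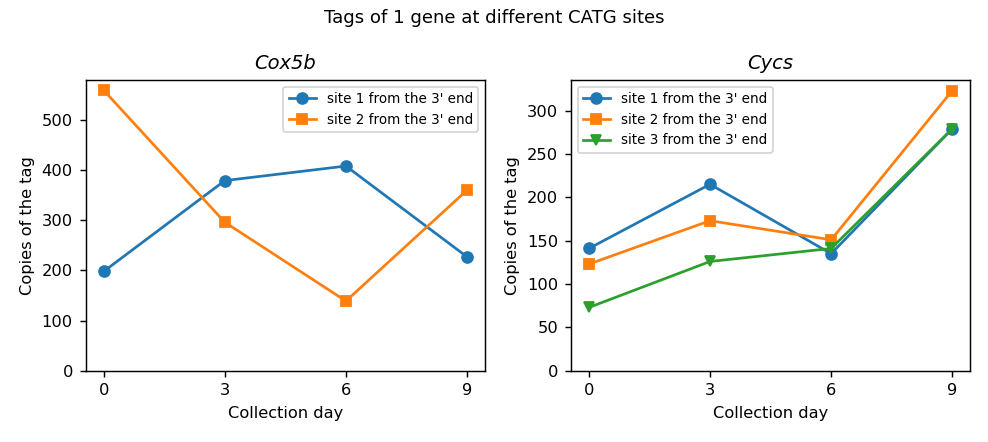
Copies of each tag (vertical axis, from 0) are plotted against collection day for the tags of Cox5b and Cycs, by CATG site counted from the 3′ end. The lines of Cox5b cross, with 559 and 198 copies on day 0 and 139 and 408 on day 6, while the 3 lines of Cycs all end at their highest point on day 9.

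Complex V, the ATP synthase, held members on very different courses. Its sum was 8018, 9278, 6372 and 8584, and 6 of 9 members whose mean reached 50 counts were lowest on day 6. The catalytic-head subunit Atp5a1 had 2202, 2789, 1802 and 2063 counts, so it was highest on day 3 and lowest on day 6, within 1.5-fold of day 0 throughout. It was counted largely through 2 tags that differ at 1 base, with 2005, 2578, 1671 and 1906 copies of the first and 133, 119, 78 and 87 of the second. The files put both under Atp5a1.

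The c-ring, the rotor that turns as protons pass, is encoded by 3 genes whose mature proteins are identical: Atp5g1, Atp5g2 and Atp5g3. Atp5g2 had 1088, 411, 144 and 427 counts and lay below day 0 on all later days, by 2.66-fold on day 3 (2.37 to 2.99), 7.32-fold on day 6 (6.16 to 8.79) and 2.43-fold on day 9 (2.17 to 2.72). Among members it was the one furthest apart on day 6. Atp5g1 had 360, 301, 202 and 325 counts and was 1.73-fold lower on day 6 (1.45 to 2.07). Atp5g3 had 2227, 3259, 2262 and 2826 counts, with day 6 level with day 0 and day 3 at 1.46-fold (1.38 to 1.54). Of the 3 genes, Atp5g3 had the most counts on every day. A further row described as this subunit ran the other way on day 6, as given with the rows outside the symbol pattern.

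Atp5i encodes subunit e, which helps the synthase to pair into dimers in the cristae. It had 313, 297, 90 and 695 counts. Day 6 was 3.36-fold below day 0 (2.66 to 4.32) and day 9 was 2.33-fold above it (2.04 to 2.67), which made it 7.84-fold higher on day 9 than on day 6 (6.31 to 9.92). Atp5j2, subunit f, had 36, 43, 43 and 56 counts and was 1.62-fold higher on day 9 than on day 0 (1.06 to 2.56). No other member crossed 2-fold below day 0 on one day and 2-fold above it on another.

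The symbol pattern also took in 13 assembly factors and relatives that are not standing subunits. Ndufa4l2, a hypoxia-responsive relative of the complex IV subunit Ndufa4, had 252, 250, 77 and 166 counts and was 3.16-fold lower on day 6 than on day 0 (2.45 to 4.16). Ndufa4 itself had 9, 15, 15 and 30 counts. Cox7a2l, a factor for joining complexes III and IV into supercomplexes, had 124, 143, 217 and 204 counts and was 1.80-fold higher on day 6 (1.44 to 2.26), against the general direction. Cox4nb had 57, 20, 17 and 34 counts and was 3.19-fold lower on day 6 (1.87 to 5.97), but RefSeq names it Emc8, a subunit of a membrane insertion complex of the endoplasmic reticulum and not of the respiratory chain. The assembly factors Sdhaf2 and Ndufaf2 had 44, 63, 51 and 72 counts and 29, 26, 19 and 24 counts.

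Other tissue isoforms were scarce. Cox4i2, the isoform of lung and hypoxic cells, had 13, 26, 9 and 9 counts. Cox6a1, the general partner of the muscle form Cox6a2, had 75, 77, 67 and 89 counts and varied little. Cox6b2, the testis form, had 3, 6, 5 and 6 counts, and Cox8b, a heart and muscle form, had 0, 0, 0 and 2, while the general form Cox8a had 1418, 1733, 1574 and 1382. A count of 0 allows up to 3 counts. In all, 16 members had a mean below 10 counts and 8 stood at 0 in at least 1 library, so their days were not compared.

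Of the 49 members whose mean reached 50 counts, 23 (46.9%) were past 1.5-fold in none of the 5 comparisons, against 33.7% of 4671 rows of that abundance. The 23 include abundant subunits of several complexes. Ndufa6, an accessory subunit of complex I, had 1210, 1591, 1121 and 1327 counts. Atp5o, which belongs to the stalk that holds the synthase head in place, had 647, 900, 754 and 830 counts, and Atp5f1, its partner in that stalk, had 725, 749, 670 and 878. Ndufa6 and Atp5f1 were lowest on day 6, while Atp5o was lowest on day 0. Ndufa8, an accessory subunit of complex I, had 386, 449, 425 and 340 counts and was lowest on day 9.

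The base composition of the main tag moved with some of these ratios. Over the 63 members, Spearman's rho between the number of G and C bases among the 17 after CATG and the log2 ratio to day 0 was -0.35 on day 3, -0.33 on day 6 and -0.22 on day 9. Over 9876 rows, which share the same 4 libraries, it was -0.09, -0.13 and -0.14. On day 6 against day 3 it was -0.06 among members, and on day 9 against day 6 it was 0.07. With the median of rows of like composition subtracted, the members' median was -0.22 for day 6 against day 0, -0.32 for day 6 against day 3 and 0.36 for day 9 against day 6, near the values without that step. For day 3 and day 9 against day 0 it moved further, from 0.15 to 0.23 and from 0.16 to 0.09.

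Some subunits were counted under rows that the symbol pattern misses. The row described as ATP synthase subunit beta, the catalytic subunit, had 2917, 3550, 2339 and 2991 counts, so it was also lowest on day 6 and highest on day 3. A row described as ATP synthase subunit d had 646, 695, 614 and 559 counts, while Atp5h, the gene symbol of that subunit, had 0, 0, 13 and 12. A row for subunit 7A2 of complex IV had 829, 1051, 860 and 1046 counts. A row for subunit B3 of complex I had 224, 318, 204 and 312. The c-ring subunit, described as the lipid-binding protein, had 2 further rows. One had 119, 187, 138 and 180 counts. The other had 45, 48, 105 and 55 and was 2.39-fold higher on day 6 than on day 0 (1.68 to 3.49), opposite to Atp5g2. The other 4 of the 10 rows had at most 99 counts on any day. Most counts described as subunit d thus stood outside the row of its symbol. Values of genes with close copies are uncertain where the authors' assignment could split them between rows.

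Subunits encoded in mitochondrial DNA were, by their sum, not lowest on day 6. The 17 rows described as such had 23625, 22889, 24948 and 29074 counts together, with day 3 the lowest and day 9 the highest. After scaling, their day 6 sum was 1.09-fold that of day 0, and the sum of the nuclear members was 0.91-fold. Of 16 such rows whose mean reached 50 counts, 10 lay above day 0 on day 6 and 3 were lowest on that day. Among all rows whose mean reached 10 counts, 5046 of 9876 lay above day 0 on day 6. Day 6 was the lowest day for 20.4% of the 4671 rows whose mean reached 50.

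The other mitochondrial lists and glycolysis are counted among genes with at least 50 counts in either library of day 6 against day 0, where the background was 13.1% lower and 7.48% higher. With lists of 2 to 42 such genes, a difference from that background was not shown. Of 6 assembly factors outside the symbol pattern, 1 was lower on day 6: Surf1, a factor for complex IV, with 185, 107, 41 and 84 counts. Of 11 citrate cycle and pyruvate dehydrogenase genes 2 (18.2%) were lower and none higher, namely Pdha1 with 326, 312, 104 and 320 counts and Pdhb with 212, 167, 55 and 197. These encode both subunits of the first enzyme of the pyruvate dehydrogenase complex, which turns pyruvate into acetyl-CoA, and both had counts near those of day 0 again on day 9. Of 42 mitochondrial ribosomal proteins 7 (16.7%) were lower and none higher, among them Mrpl52 with 308, 148, 86 and 196 counts and Mrpl12 with 150, 129, 53 and 80. Of 2 regulators of mitochondrial biogenesis with enough counts, Tfam, which packages and transcribes mitochondrial DNA, was lower on day 6 with 54, 42, 16 and 36 counts, and Esrra was higher on day 3 with 37, 84, 65 and 41. Among 11 glycolysis genes 2 (18.2%) were lower and none higher, including the muscle phosphofructokinase Pfkm with 195, 167, 43 and 169 counts. Of 6 carriers and pores, 0 were called lower or higher on day 6 against day 0. One of them, Slc25a4, the ADP/ATP carrier of muscle and heart, had 689, 1366, 595 and 1208 counts. In the other comparison, day 6 against day 3, it was called 2-fold lower, as were 6.74% of all rows.

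Promoters of these genes are known to carry sites for NRF1, for ETS factors such as GABP, and for YY1. RefSeq promoters of build GRCr8, from 250 bases before to 50 bases after the start, were matched for 66 members and searched on both strands. The letters were GCGCANGCG (or CGCNTGCGC) for NRF1, CCGGAAG (or CTTCCGG) for GABP and AAGATGG (or CCATCTT) for YY1. NRF1 letters can overlap on opposite strands, as in the palindrome shown for Atp5g2. They occurred in 17 member promoters (25.8%), the GABP letters in 20 (30.3%) and the YY1 letters in 14 (21.2%). The shares over 21851 promoters of protein-coding genes were 7.62, 10.7 and 7.29%. At least 1 of the motifs stood in 40 member promoters (60.6%), against 22.5%. The promoters of Cox4i1 and Cox4nb overlap on opposite strands, so their GABP letters were counted for both, and the 66 are not all separate.

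Stretches upstream of the start with such letters, in capitals, are shown for members that went different ways: the low Atp5g2, Cycs with its day 9 high, Cox5b with its opposed tags, and Sdhb with its day 3 high. They lie at chr7:135678253-135678286 on the minus strand, chr4:80984905-80984937 on the minus strand, chr9:46417811-46417836 on the plus strand and chr5:158547814-158547844 on the plus strand.
Atp5g2 upstream: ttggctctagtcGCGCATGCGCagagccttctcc
Cycs upstream: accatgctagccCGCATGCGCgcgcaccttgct
Cox5b upstream: ctctgtctgttcCCGGAAGtgcatct
Sdhb upstream: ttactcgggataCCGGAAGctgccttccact
Atp5g2 and Cycs share NRF1 letters, and Cox5b and Sdhb share GABP letters, while their counts took different courses. For Atp5i, low on day 6 and high on day 9, the stretch at chr14:1464666-1464859 on the plus strand held letters of all 3 motifs, which was so in 2 of the 66 member promoters (3.03%) and in 36 promoters of protein-coding genes.
Atp5i upstream: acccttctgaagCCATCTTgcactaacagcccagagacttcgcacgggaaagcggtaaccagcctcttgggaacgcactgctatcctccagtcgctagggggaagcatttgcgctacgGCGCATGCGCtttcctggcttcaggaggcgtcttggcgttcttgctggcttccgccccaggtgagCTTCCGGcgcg
Uqcrfs1 had none of these motifs in the window. A match of letters is a description and not evidence of binding.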

How the data were processed

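Footpad skin RNA was read as 21-base tags, with 1 library for each of days 0, 3, 6 and 9. Per the file headers, the authors deposited whole-number counts of tags per gene, and a scaled column headed TPM that holds CPM (counts scaled to the tags seen at least 2 times, with no length term). Tests on the files found 0 gene sums that departed from the tag copies. The submitters' processing notes name the build Rnor_6.0, and the aligner is not given in the sources used here. The libraries held 3592019, 3360368, 3556566 and 3442555 tags and 1982608, 1968034, 1967902 and 1952921 gene counts.

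Counts of all 18957 rows were scaled with TMM factors (1.01, 1.02, 0.989 and 0.978) from edgeR 4.0.16, in R 4.3.3. Ratios used a prior count of 0.5 and exact 95% Clopper-Pearson intervals. No test was made, since 1 library for each day gives no spread. Of the 5 comparisons, 3 set a later day against day 0, and the others set day 6 against day 3 and day 9 against day 6. Medians used members whose mean reached 10 counts. The procedure was tested on simulated counts. All 79 gene identifiers matched RefSeq, 17 under another symbol, and symbols are printed as the files give them. RefSeq names the Ndufs6 row Ndufs6-ps1, a form of symbol used for pseudogenes. It is counted in complex I, but its mean of 8 counts keeps it out of the medians.

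The members, lists and alternatives were chosen with earlier results of these data known. Counts are printed for members past 2-fold in any comparison, for the 2 highest and 2 lowest of each complex on day 9 against day 0, for isoform pairs, for defining subunits and for members whose main tag differed between libraries. Genes of other lists were named only if past 2-fold, at most 4 for each list. Ndufs3, Ndufa6, Ndufa8, Cox5a, Atp5f1, Atp5o, Atp5h, and the rows and muscle and keratinocyte markers outside the members were named after their values were seen. Alternatives covered the scaling (DESeq2 1.42.0 size factors and others), fold, count floor, filter, tags and members. Some members are not reported singly here.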

Additional observations from a re-analysis of the deposited data

How the results depend on the processing

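The 5 medians over members kept their direction under every alternative run. The alternative that left out isoforms known from muscle removed no gene from these medians, so its value was the main one by construction. They ranged from 0.12 to 0.26 for day 3 against day 0, from -0.26 to -0.12 for day 6 against day 0, from 0.09 to 0.17 for day 9 against day 0, from -0.45 to -0.26 for day 6 against day 3 and from 0.32 to 0.39 for day 9 against day 6. The alternatives on tag composition, on rows described as nuclear subunits and on scaling without the day 6 library were chosen after seeing the data.

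The number of members past the size rule moved more. It was 5, 9, 5, 7 and 7 in these comparisons, in that order. At 1.5-fold it was 11, 16, 14, 13 and 15. With the interval bound itself required to reach 2-fold, it was 1 on day 3 and 3 on day 9 against day 0, and 4 on day 9 against day 6. With a floor of 200 counts it was 5 on day 6 against day 0, 4 on day 6 against day 3 and 3 on day 9 against day 6. With a floor of 10 counts it was 9 on day 9 against day 0. Stricter or looser limits change these numbers by construction. Ndufb10 lost its day 3 call under library totals and 3 other settings and its day 6 call against day 0 under totals without the 20 most abundant genes, which left 8 of 9 members. Sdhb gained a call on day 6 against day 3 under the 4 other scalings. Taken from their most abundant tag alone, Cox5b had a log2 ratio of -1.96 on day 6 against day 0 and Cycs one of -0.02.

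No paired analysis was possible because each day has 1 library, and for the same reason no replicate could be left out. Depth limits the 16 members below a mean of 10 counts.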
